A study of Mus musculus with 30 samples.

Results

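The receptors, STAT factors and feedback inhibitors of interleukin-6 (IL-6) family signalling were followed in mouse gastrocnemius muscle after long exposure to a shifting light schedule. The 10 members, Il6ra, Il6st, Lifr, Osmr, Stat3, Stat5b, Socs2, Socs3, Cish and Pim1, were taken by gene symbol from the 56951 symbols of the deposited tables, and all 10 were among the 12030 genes that passed the filter on low expression. Poly(A) RNA was sequenced from 30 male wild-type C57BL/6J mice, each housed alone with a running wheel and each giving 1 library. After purchase at 10 weeks of age, 2 weeks of light and dark and 2 weeks of darkness, the LD group (n = 14) stayed for 64 weeks under an unshifted cycle of 12 h light and 12 h dark, whereas in the ADV group (n = 16) the cycle was moved 8 h earlier every 4 days. The gastrocnemius was collected together with the plantaris, and it was taken over a range of daytime hours that was not known here for each mouse.

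IL-6 family cytokines bind a receptor subunit of their own, such as the IL-6 receptor (Il6ra), the oncostatin M receptor (Osmr) or the LIF receptor (Lifr), and signal through the shared subunit gp130 (Il6st). Janus kinases on these receptors phosphorylate STAT3, which enters the nucleus and switches on genes that include Socs3, whose protein binds gp130 and the kinase and ends the signal. Growth hormone uses STAT5B in the same manner in muscle, with Socs2 and Cish as feedback inhibitors, and Pim1 encodes a survival kinase induced by both STAT factors. Because of this feedback, Socs3, Socs2 and Cish are commonly read as transcripts that respond to the pathway, whereas the receptors set which cytokines a cell can sense.

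STAT dimers bind the palindrome TTCNNNGAA, which reads the same on both strands, and this word was searched for before the starts of the members. It occurred within 300 bases before the start of the deposited transcript in Socs2 and Socs3 and in none of the other 8 members, against 7.14% of all genes tested (859 of 12030). When the 300 bases before every annotated protein-coding start were searched (GENCODE vM39), Cish and Lifr were added, against 17.0% of all genes (2044 of 12030). The number of starts searched differed between genes, and this share was not matched for it. The windows of the feedback genes are shown because these genes are read as STAT responses, with each match in capitals, 5′ to 3′ on the gene's strand, from the GRCm39 genome.
Socs3 (chr11:117860055-117860084, minus strand): cggccgggcagTTCCAGGAAtcggggggcg
Socs2 (chr10:95252761-95252790, minus strand): gcggaTTCCTGGAAagTTCCTGGAAagcgg
Cish (chr9:107173853-107173882, plus strand): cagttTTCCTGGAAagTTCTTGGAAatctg
Cish (chr9:107173961-107173990, plus strand): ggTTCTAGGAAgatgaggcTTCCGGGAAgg
Socs3, before another start (chr11:117860328-117860357, minus strand): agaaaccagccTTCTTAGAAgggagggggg
Socs2, before another start (chr10:95254141-95254170, minus strand): cccatcaaagaTTCCAGGAAaacagcctcc
Relative to the deposited start, the Socs3 match lay at position -61 and the pair in Socs2 at positions -55 and -66. In GENCODE vM39 these same transcripts start further upstream, at base 117860123 for Socs3 and 95252972 for Socs2. These matches thus lie inside the vM39 span of the deposited transcripts. The 300 bases before that Socs2 start held 0 matches. In Cish, 4 matches lay at positions -253 to -131 relative to a second annotated start, at base 107174111 of chromosome 9. The last 2 windows hold the matches at position -223 of another annotated Socs3 start and -230 of another annotated Socs2 start. None lay in coding sequence: the first Socs3 match fell in a noncoding exon part of 1 of 6 annotated protein-coding transcripts, the Socs2 pair in that of 9 of 23, and the Cish matches in that of 2 of 3. A match is a run of letters and not a measured binding site.

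Between 18875468.5 and 28512674 read pairs per library were counted on exons. The myofibre markers summed to between 67731 and 97464 FPKM (fragments per kilobase of exon, scaled to library size) in every library, and leukocyte markers to between 107 and 430 FPKM, with the lymphocyte markers Cd3e and Cd79a at 0 in 7 and 2 libraries. Across all genes, edgeR's quasi-likelihood test called 10.8% different between the groups (FDR under 0.05), 5.61% higher and 5.2% lower in the ADV group. The call counts of 675 higher and 626 lower became 775 and 466 when libraries were scaled by their size alone, and the first scaling is used throughout. All 7 clock genes that peak opposite to Bmal1 were called lower in the ADV group. Of a set of 5, made of Bmal1 and genes that peak with it, 3 were called higher and 4 had a fitted difference above 0. A score made of both sets ran from -1.10 to 3.17 in LD mice and from -2.30 to 1.33 in ADV mice, with 6 LD mice above every ADV mouse and 6 ADV mice below every LD mouse. With this score in the fit edgeR called 0 of the 12030 genes (1427 at an unadjusted p under 0.05). Most of the 12 genes in the score were themselves called between the groups, so the score largely follows the group and a loss of calls was likely beforehand. Schedule and clock phase at collection cannot be told apart in these libraries.

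Of the 10 members, only Stat5b was called different between the groups (1 of 10, against 10.8% of all genes). No member had a fitted difference of more than 1.3-fold, but some 95% confidence intervals reached further. They extended to 1.73-fold for Socs2 and to 0.710-fold for Lifr, for instance. Stat5b, the STAT factor of growth hormone signalling, ranged from 38.0 to 61.3 FPKM in LD mice (median 46.9) and from 26.6 to 50.6 FPKM in ADV mice (median 38.5). The ranges overlapped, but 14 of 16 ADV mice lay below the LD median. Mean levels were 47.8 ± 7.19 FPKM (SD, n = 14) and 40.1 ± 5.68 FPKM (n = 16), and the transcript fell by 0.27 on the log2 scale (SE 0.08, 95% confidence interval -0.43 to -0.10, edgeR FDR = 0.0317), or 0.832-fold. The call was lost without LD mouse 23, 28 or 35 (FDR = 0.0502 to 0.0557) and when a score of clock genes entered the fit, where the difference was -0.30 with an FDR of 0.325. Stat5a, the neighbouring paralog of near-identical sequence, had mean levels of 3.58 ± 0.44 and 3.27 ± 0.69 FPKM in the LD and ADV groups (-0.15, SE 0.08, edgeR FDR = 0.210), and reads shared by the 2 genes could be lost or assigned to either.

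**Figure D1:**
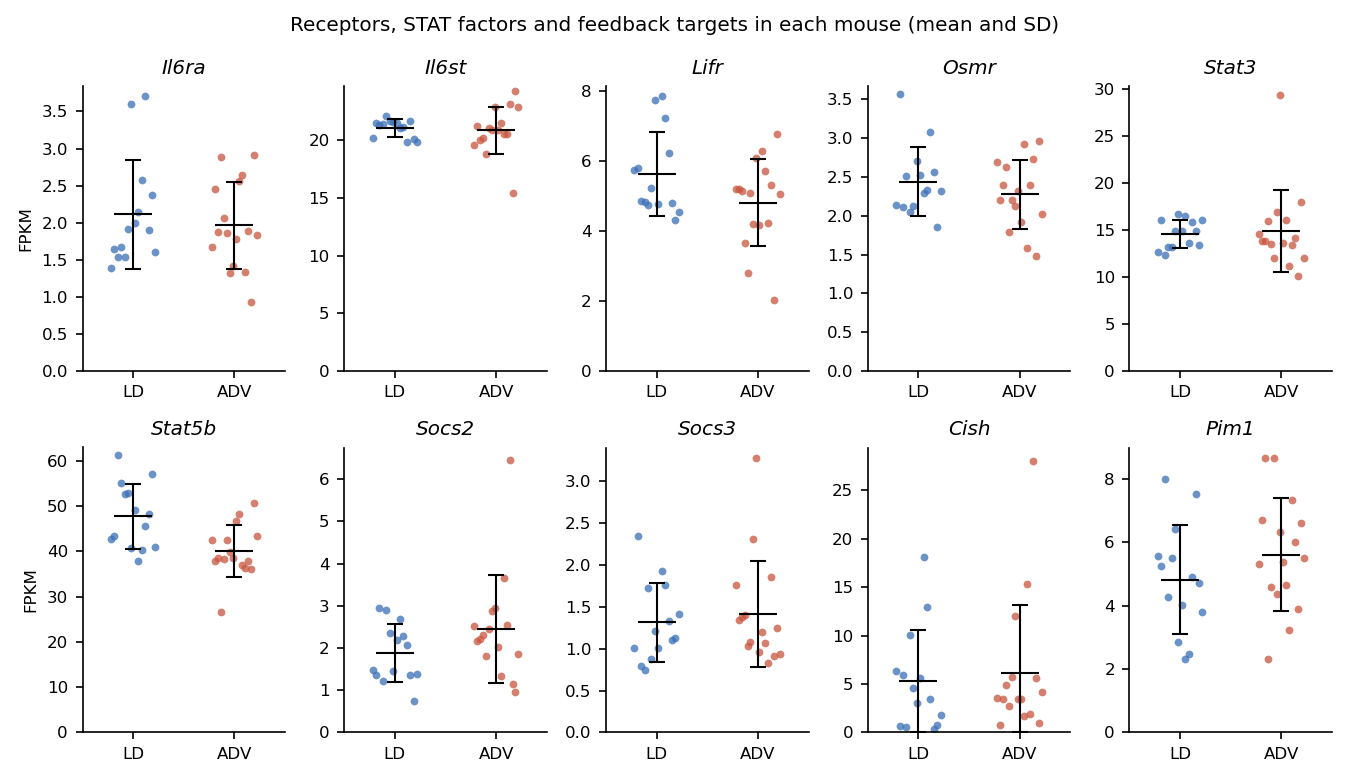
FPKM of the 10 members in each LD mouse (blue, n = 14) and ADV mouse (red, n = 16), with the mean and SD in black and the vertical axis from 0 (the lower bar for Cish in ADV mice is cut at 0). Most Stat5b points of the ADV group lie below the LD median of 46.9 FPKM, whereas Cish spans 0.35 to 28.001 FPKM across the mice.

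The receptors did not differ detectably between the schedules, although the fitted mean of all 4 was lower in ADV mice. Il6st, the signalling subunit that the family shares, was the steadiest member. It lay between 19.9 and 22.1 FPKM in LD mice (median 21.4) and between 15.4 and 24.3 FPKM in ADV mice (median 20.9). Its means were 21.1 ± 0.75 and 20.9 ± 2.03 FPKM, a log2 difference of -0.03 (95% confidence interval -0.11 to 0.05, edgeR FDR = 0.662). The interval spans 0.925-fold to 1.04-fold.

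Lifr, the receptor subunit for LIF and related cytokines, ranged from 4.32 to 7.86 FPKM in LD mice (median 5.04) and from 2.03 to 6.79 FPKM in ADV mice (median 5.12). The 6 lowest values all came from ADV mice and the 3 highest from LD mice, yet the medians were nearly the same. Its log2 difference of -0.24 had the lowest FDR of the 4 receptors and missed the threshold (95% confidence interval -0.49 to 0.01, edgeR FDR = 0.192).

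Osmr, which pairs with gp130 to bind oncostatin M, lay between 1.86 and 3.57 FPKM in LD mice (median 2.33) and between 1.48 and 2.97 FPKM in ADV mice (median 2.26). Il6ra, which captures IL-6 itself, lay between 1.39 and 3.71 FPKM (median 1.91) and between 0.94 and 2.92 FPKM (median 1.87). Both overlapped along almost the whole range, with log2 differences of -0.12 for Osmr (95% confidence interval -0.32 to 0.07, edgeR FDR = 0.398) and -0.13 for Il6ra (-0.45 to 0.20, FDR = 0.620). In whole muscle, fewer cells that carry a receptor and less RNA per cell cannot be told apart. Endothelial markers summed to between 89.9 and 129 FPKM in LD mice and between 105 and 141 FPKM in ADV mice, with 2 of 10 called, Pecam1 and Emcn, both higher. Markers of fibro-adipogenic progenitors summed to between 357 and 462 FPKM and between 301 and 502 FPKM, with 1 of 9 called, Pdgfra, lower, and leukocyte markers, of which 9 of 10 had a lower fitted mean in ADV (median -0.28), had 0 called by edgeR or DESeq2 and 3 at an unadjusted p under 0.05. Their part in the receptor levels was not tested.

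ADV mouse 34 had the lowest level of all 4 receptors, and its library stood apart more widely, with the lowest value of 16.0% of all genes tested and the highest of 13.7%. Without that mouse the log2 difference was -0.18 for Lifr (FDR = 0.260) and -0.0045 for Il6st (FDR = 0.943).

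Stat3, the factor that gp130 signalling activates, stayed within a narrow band in LD mice, from 12.3 to 16.6 FPKM (median 14.9). In ADV mice it ranged from 10.1 to 29.3 FPKM (median 13.8). The upper end came from ADV mouse 28 alone, with the next mouse at 17.9 FPKM. Mean levels were 14.6 ± 1.49 and 14.9 ± 4.37 FPKM, and the log2 difference was 0.01 (95% confidence interval -0.19 to 0.20, edgeR FDR = 0.966). Without ADV mouse 28 it was -0.08 (FDR = 0.416), and its sign also turned in 5 alternative analyses, so no direction is given for Stat3.

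**Figure D2:**
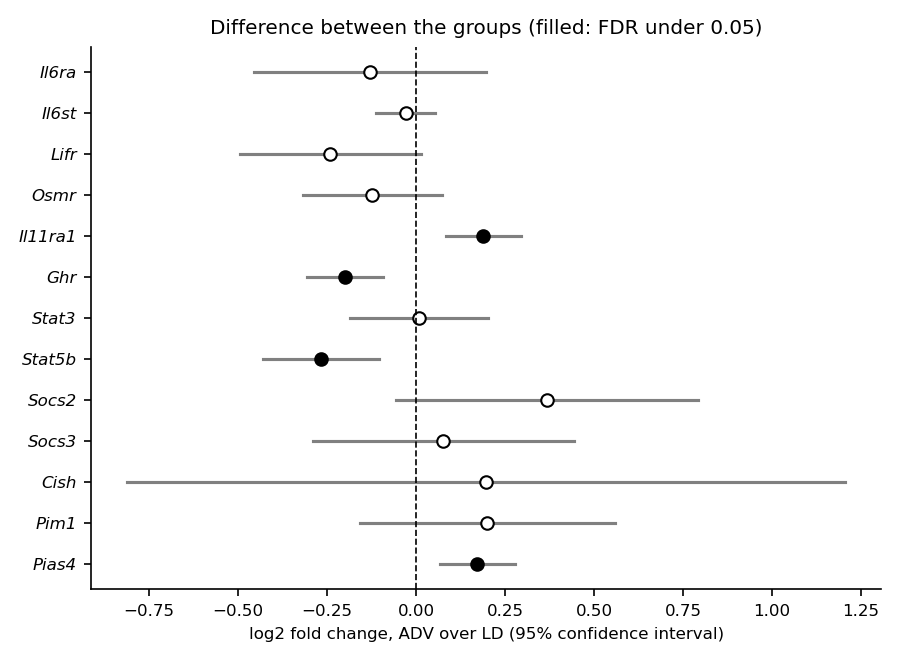
Log2 fold change of ADV over LD for the 10 members and the other 3 genes of the pathway that passed the test, with 95% confidence intervals from edgeR, filled where the FDR was under 0.05. Stat5b and Ghr lie below 0, Il11ra1 and Pias4 above it, and the interval of Cish (-0.81 to 1.21) is the widest.

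The feedback target Socs3 was expressed at a low level and did not differ detectably between the groups. It ranged from 0.75 to 2.35 FPKM in LD mice (median 1.17) and from 0.82 to 3.28 FPKM in ADV mice (median 1.22), which is 47 to 192 reads per library. The groups overlapped throughout, with 9 of 16 ADV mice above the LD median. Its means were 1.31 ± 0.47 and 1.41 ± 0.64 FPKM, a log2 difference of 0.08 (SE 0.18, 95% confidence interval -0.29 to 0.44, edgeR FDR = 0.809). The sign of this difference turned without ADV mouse 28 (-0.05) and after removal of the GC content trend (-0.03).

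Socs2, a feedback inhibitor of growth hormone receptor signalling, ranged from 0.74 to 2.94 FPKM in LD mice (median 1.77) and from 0.95 to 6.47 FPKM in ADV mice (median 2.27). Although 13 of 16 ADV mice lay above the LD median, the log2 difference of 0.37 was not called (95% confidence interval -0.06 to 0.79, edgeR FDR = 0.232), and it was 0.20 without ADV mouse 33.

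Cish, which encodes an inhibitor that docks on cytokine receptors next to STAT5, varied more than any other member. It lay between 0.35 and 18.1 FPKM in LD mice (median 3.98) and between 0.77 and 28.001 FPKM in ADV mice (median 3.52). That is a 51.2-fold range within the LD group and a 36.4-fold range within the ADV group, under one schedule each. The log2 difference of 0.20 had a 95% confidence interval of -0.81 to 1.21 (edgeR FDR = 0.820) and was -0.19 without ADV mouse 33. For Cish these libraries could therefore not separate a fall to 0.570-fold from a rise to 2.31-fold.

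Pim1 ranged from 2.31 to 7.99 FPKM in LD mice (median 4.81) and from 2.33 to 8.68 FPKM in ADV mice (median 5.44), with a log2 difference of 0.20 (95% confidence interval -0.16 to 0.56, edgeR FDR = 0.460). This sign turned when the same clock gene score entered the fit (-0.03).

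The members differed in spread between mice of the same group. Ranked by the within-group SD of log2 CPM (counts scaled to library size) over all 12030 genes, Cish was 4th (SD 1.55), Socs2 329th (0.59), Pim1 487th (0.53) and Socs3 653rd (0.49). Il6ra ranked 816th (0.45), so that the feedback genes, Pim1 and Il6ra all lay within the top 6.78% of genes by spread. Il6st ranked 10728th (0.11), and Stat3 and Stat5b lay between, at 3643rd and 4522nd. This SD includes counting noise, and the ranks were not matched for read level. Mean reads were 84 for Socs3, 118 for Socs2, 165 for Il6ra, 348 for Pim1 and 390 for Cish, against 4429 for Il6st.

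By level per length (FPKM averaged over the 30 mice), Stat5b stood first at 43.7, followed by Il6st at 20.98 and Stat3 at 14.7. Stat5b exceeded Il6st in 30 of 30 mice and Il6st exceeded Stat3 in 29. Cish (5.73), Pim1 (5.24) and Lifr (5.19) came next and could not be ordered: Cish was above Pim1 in 11 mice and Pim1 above Lifr in 17 of 30. Osmr (2.35), Socs2 (2.19) and Il6ra (2.03) were likewise not separated, since Osmr was above Socs2 in 18 mice and Socs2 above Il6ra in 17. Socs3 was last at 1.37 and lay below Il6ra in 25 of 30 mice. For several genes the exon length in the deposited tables was shorter than that of the same transcript in GENCODE vM39. It was 3324 against 8642 bases in Il6ra, 4104 against 9948 in Lifr and 2880 against 6286 in Stat3. In addition, 8 of the 10 members overlap a noncoding gene on the other strand (not Stat5b and Socs2). Levels between genes depend on both, and whether the counting used the strand is not given in the sources used here.

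Set against the shared receptor subunit, Socs3 did not differ detectably between the groups. Per mouse, log2(Socs3/Il6st) of the FPKM values lay between -4.83 and -3.19 in LD mice (median -4.16) and between -4.64 and -2.80 in ADV mice (median -4.12). Means were -4.08 ± 0.50 and -3.98 ± 0.51, so that Socs3 stood at 5.90% and 6.32% of the Il6st level (geometric means). The difference of 0.10 (SE 0.18) was smaller than the spread within either group (two-sided permutation test, 100000 resamples, p = 0.594).

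Against the other receptors, given without a test, the mean log2 ratio was -0.70 ± 0.61 in LD and -0.52 ± 0.74 in ADV mice for Il6ra. It was -2.15 ± 0.45 and -1.82 ± 0.56 for Lifr, and -0.95 ± 0.46 and -0.76 ± 0.51 for Osmr. All 3 means were higher in the ADV group, by 0.18, 0.33 and 0.19, and all overlapped.

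**Figure D3:**
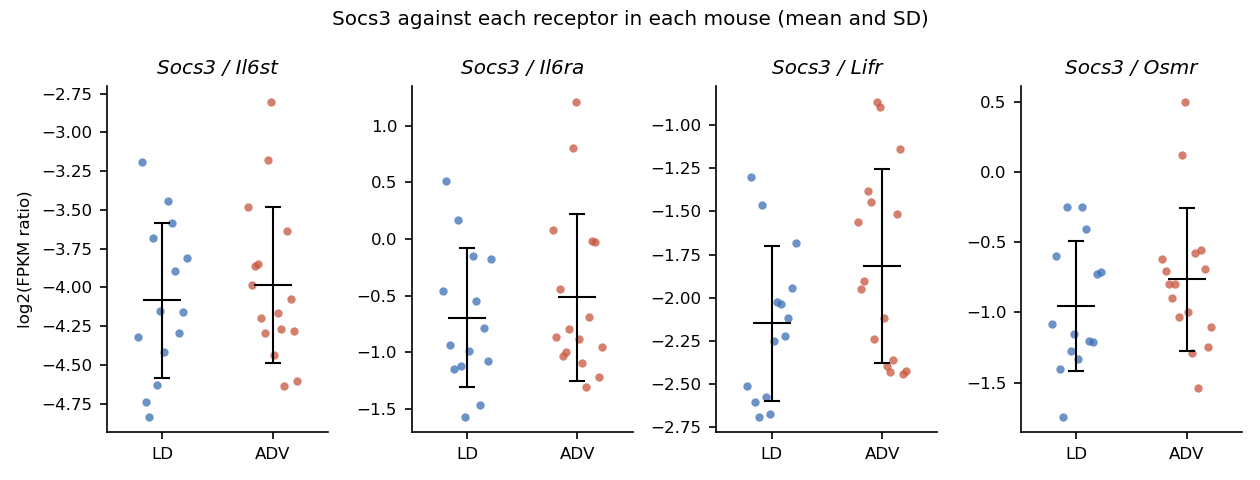
Log2 ratio of Socs3 FPKM to the FPKM of each receptor in each LD mouse (blue, n = 14) and ADV mouse (red, n = 16), with mean and SD in black. The groups overlap in all 4 panels, and the Il6st panel shows means of -4.08 and -3.98.

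Across mice, the feedback target and the STAT factor Stat3 tended to be high in the same ADV animals. Correlations of log2 CPM were computed within each group, 18 in all for Socs3 with the other members (Benjamini-Hochberg adjusted, permutation p). In ADV mice Socs3 and Stat3 gave r = 0.75 (p = 0.00153, adjusted p = 0.0275) and rho = 0.64 (p = 0.00801, adjusted p = 0.0931, n = 16). Without the 2 mice farthest from the Socs3 median, r was 0.43, so that the relation rested largely on those mice. In LD mice it was r = 0.43 (p = 0.124, adjusted p = 0.431) and rho = 0.47 (p = 0.0913, adjusted p = 0.329, n = 14), and the difference between the groups was not tested. The r values of Socs3 with the 4 receptors lay between -0.17 and 0.44 in both groups, with adjusted p of 0.431 or more.

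The 5 genes whose deviations from the group mean were most like those of Socs3 over the 30 libraries were Clu (r = 0.69), Lgmn (0.68), Sbno2 (0.65), Stat3 (0.63) and Mlx (0.62), given as a description since all share the same libraries and depths. Clu encodes the secreted chaperone clusterin and Lgmn a lysosomal protease. ADV mouse 28 had the highest level of Socs3, Stat3, Clu, Lgmn and Sbno2, and also of the metallothioneins Mt1 (81.8 FPKM, against at most 44.7 in the other mice) and Mt2 (85.3 against at most 35.8), and it held the highest value of 8.04% of all genes tested. Stat3, Clu, Lgmn and Sbno2 were listed for following Socs3 over these same libraries, so a shared highest mouse was likely beforehand. The metallothionein values were looked up after ADV mouse 28 was seen. Of 15 tested genes that STAT3 is known to activate in other settings, that mouse was highest in 3 (Mt1, Mt2 and Junb). Others were not high in it, and Cebpb and Mcl1 each ranked 28th of 30 from the highest.

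Of all 90 pairs of members within groups, 2 passed after adjustment by both r and rho, a family added after the data were seen. Socs2 and Cish, both feedback genes of STAT5 with a paired palindrome, moved together in LD mice (r = 0.79, p = 7.5e-04, adjusted p = 0.0337; rho = 0.84, p = 2.3e-04, adjusted p = 0.0207; n = 14), with r = 0.82 without the 2 mice farthest from the Socs2 median. In ADV mice r was 0.69 (p = 0.00401, adjusted p = 0.0898) and rho 0.51 (p = 0.0446, adjusted p = 0.310, n = 16), falling to r = 0.35 without 2 mice. ADV mouse 33 had the highest level of both, 6.47 FPKM of Socs2 and 28.001 FPKM of Cish.

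Il6st and Lifr, the subunits of one receptor complex, moved together in ADV mice (r = 0.83, p = 1.9e-04, adjusted p = 0.0171; rho = 0.78, p = 7.8e-04, adjusted p = 0.0351; n = 16). Without the 2 mice farthest from the Il6st median r was 0.56. In LD mice r was -0.11 (p = 0.711, adjusted p = 0.848) and rho -0.20 (p = 0.492, adjusted p = 0.682, n = 14), with r = -0.48 without 2 mice, and the difference between the groups was not tested.

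**Figure D4:**
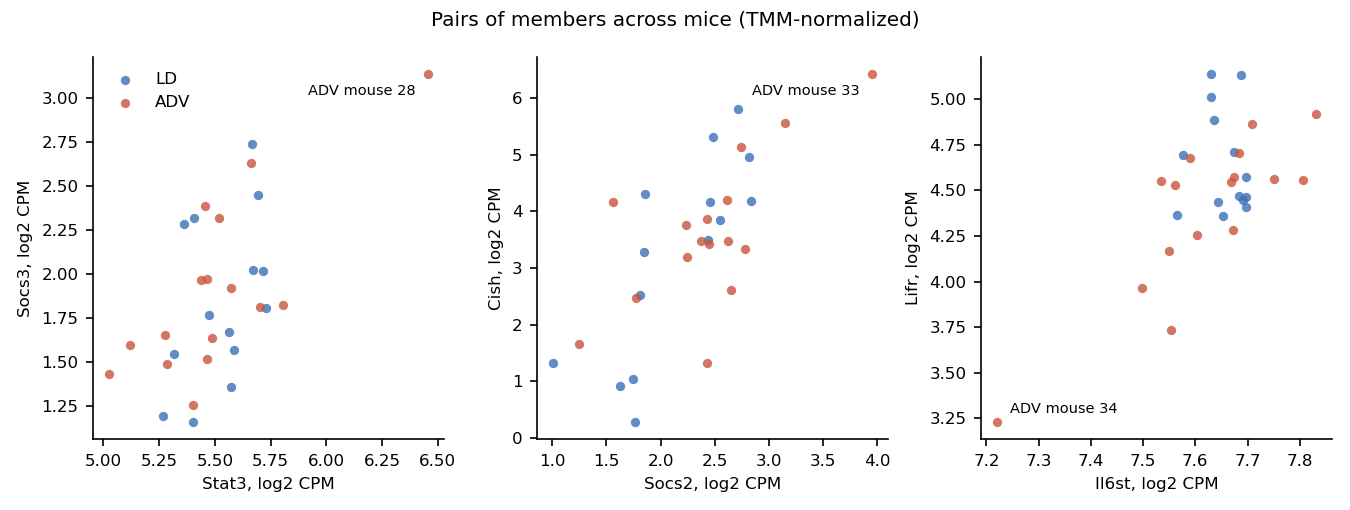
Log2 CPM (TMM-normalized) of Socs3 against Stat3, Cish against Socs2 and Lifr against Il6st, with 1 point per LD mouse (blue, n = 14) or ADV mouse (red, n = 16). ADV mouse 28 lies apart at the top right of the first panel, ADV mouse 33 is highest on both axes of the second and ADV mouse 34 is lowest on both axes of the third.

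Around the members, 69 genes of the pathway were listed by role, of which 55 were tested and 4 were called, 2 higher and 2 lower, which is below the 10.8% of all genes. Their median log2 difference was 0.04, against 0.0029 for all genes tested. Il11ra1, the receptor for IL-11, was higher in ADV mice (14.6 ± 1.60 FPKM in LD and 16.9 ± 1.95 FPKM in ADV, 0.19, SE 0.05, edgeR FDR = 0.0207), with 13 of 16 ADV mice above the LD median. Pias4, a SUMO ligase that restrains STAT factors, was also higher (5.90 ± 0.52 and 6.72 ± 0.69 FPKM, 0.17, SE 0.05, FDR = 0.0310).

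Ghr, the growth hormone receptor upstream of STAT5B, was lower in ADV mice, from 28.9 ± 2.22 to 25.5 ± 3.31 FPKM (-0.20, SE 0.05, edgeR FDR = 0.0167), with 13 of 16 ADV mice below the LD median. The growth hormone receptor and its STAT factor were thus both lower, while their feedback targets Socs2 and Cish were not called and had fitted differences above 0, and the target Igf1 stood at 1.60 ± 0.41 and 1.47 ± 0.46 FPKM (-0.14, FDR = 0.519). After removal of each library's GC content trend the calls of Il11ra1 (FDR = 0.253), Pias4 (FDR = 0.532) and Ghr (FDR = 0.148) were lost while that of Stat5b was kept (FDR = 0.0214), and Pias4 was also lost without LD mouse 28 (FDR = 0.0588).

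The ligands were scarce in this tissue, and 7 of 10 did not reach the filter. Mean reads per library were 1.22 for Il6, 0.90 for Il11, 1.53 for Osm, 1.92 for Il27, 6.85 for Ebi3, 11.9 for Clcf1 and 12.6 for Lif, and these were not tested. Il6 itself was at 0 in 12 of 30 libraries and had at most 4 reads. Ctf1, cardiotrophin 1, was tested and lay at 3.79 ± 0.40 FPKM in LD and 4.02 ± 0.67 FPKM in ADV (0.07, edgeR FDR = 0.537). Cntf, ciliary neurotrophic factor, lay at 1.22 ± 0.40 and 1.62 ± 0.56 FPKM (0.40, FDR = 0.112), with an unadjusted p of 0.0246. Neither passed with edgeR or DESeq2. Cntfr, the receptor for Cntf, was at 5.43 ± 1.04 and 7.28 ± 2.85 FPKM (0.40, edgeR FDR = 0.0672), was called by DESeq2, and was named after its value was seen. Schwann cell markers, the cells known to make Cntf, summed to between 25.1 and 48.3 FPKM in LD mice and between 27.3 and 84.4 FPKM in ADV mice, with all 6 tested higher in ADV, 0 called by edgeR, 5 at an unadjusted p under 0.05 and 3 called by DESeq2, and their part in the ligand levels was not tested.

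Among 4 Janus kinases, 9 other inhibitors and 3 PIM kinases, Pias4 alone was called by edgeR, and DESeq2 added the kinase Jak2 (-0.18, edgeR FDR = 0.0619). Of 7 SOCS family genes tested, 0 were called by edgeR or DESeq2 and 0 had an unadjusted p under 0.05, with log2 differences between -0.09 and 0.37.

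Genes that STAT3 is known to activate in other settings mostly had fitted differences above 0 and did not pass the test. Of 15 tested, 14 had a fitted difference above 0 and 1, Hif1a, just below it (-0.01), with a median of 0.25, against 50.8% of all genes above 0. Hif1a lay above 0 when libraries were scaled by size alone. edgeR called 0 of them and DESeq2 called 1, Cebpb, and 3 of 15 had an unadjusted p under 0.05, against 30.1% of all genes. The lowest FDR was that of Cebpb, a transcription factor of the acute phase response (13.0 ± 4.27 FPKM in LD and 19.3 ± 7.77 FPKM in ADV, 0.56, SE 0.19, edgeR FDR = 0.0522). Of these genes, 3 are also immediate early genes (Junb, Myc and Ier3), and the other 12 had a median of 0.26 with 11 above 0. Immediate early genes were higher in the ADV group, with 13 of 21 called and a summed level of 106 to 207 FPKM in LD mice and 146 to 557 FPKM in ADV mice. Adipocyte markers also lay above 0 in the ADV group, 8 of 8 with a median of 0.45, of which edgeR called 1, Fabp4, and DESeq2 3. They summed to 179 to 377 FPKM in LD mice and 191 to 697 FPKM in ADV mice. The part of either list in the STAT3 response genes was not tested. ADV mice 24 and 33 each had the highest level of 4 of the 15 genes, and over all genes tested mouse 24 had the highest value of 14.2%, the most of any library, and mouse 33 of 2.07%.

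**Figure D5:**
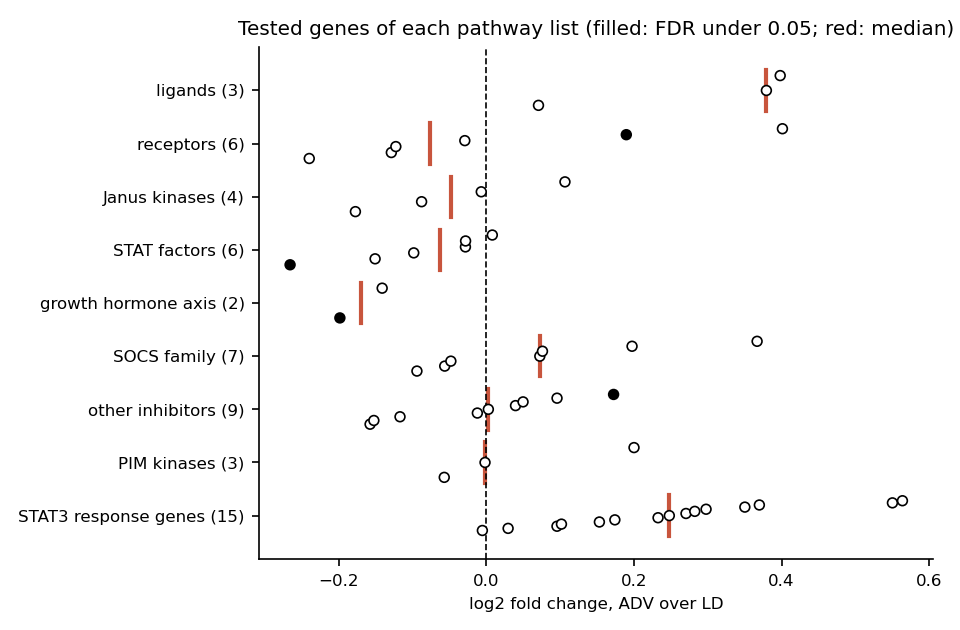
Log2 fold change of ADV over LD for the 55 tested genes of the pathway, grouped by role with the number tested in brackets; filled points had an FDR under 0.05 and red bars mark the median of each list. The STAT3 response genes lie mostly to the right of 0 (median 0.25) with no filled point, and the 4 filled points are Il11ra1, Stat5b, Ghr and Pias4.

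Correlations of each member with the clock gene score and with an immediate early gene score were computed within groups, 40 in all and added after the data were seen, and 0 passed after adjustment. The lowest p was that of Osmr with the immediate early gene score in LD mice (r = 0.68, permutation p = 0.00762, adjusted p = 0.305; rho = 0.71, p = 0.00586, adjusted p = 0.234; n = 14), with r = 0.58 without the 2 mice farthest from the median of the score.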

How the data were processed

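After trimming (Trimmomatic), the authors aligned the paired-end reads to GRCm39 using STAR (2.7.10a per the submitters' processing notes), and counted exon reads per UCSC transcript with HOMER (4.11), where each mate counts 0.5. The deposited estimated counts (14.8% not whole) were rounded; the deposited FPKM values were made by the authors from count, exon length and library total (reproduced within 5.0e-04). Of 57186 rows, the longest with a mean over 20 reads was kept per symbol, and 12030 genes also had a mean FPKM over 0.5. Counts were tested with edgeR 4.0.16 (TMM, quasi-likelihood, Benjamini-Hochberg) in R 4.3.3; alternatives used DESeq2 1.42.0 and limma 3.58.1. Permutation tests used 100000 resamples, or 20000 for the ratio without single mice, and scipy 1.17.1 gave the ranks and adjusted the permutation p-values.

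The members and lists were chosen with earlier results of these data known. Named genes were the members, ligands, other called pathway genes and the 5 genes most like Socs3; others are said to be chosen later. One item of the lists is not reported here. On simulated libraries with 200 of 12030 genes changed 2-fold, 206 were called, 197 of them changed. Genes varied independently of each other in this simulation and smaller changes were not simulated, so it does not show the power for the differences reported here. Between 18875468.5 and 28512674 read pairs per library fell on exons, and no pair of libraries within a group was alike within sampling noise. Pairs across the groups were not compared in this way. Each library is 1 mouse. Label numbers shared between groups were not treated as pairs in the main fit. The immediate early gene covariate and the 2 wider correlation families were added after seeing the data.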

Additional observations from a re-analysis of the deposited data

How the results depend on the processing

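The fold changes and call counts were refitted under 15 alternatives and without each of the 30 mice. The number of members called was 1 and became 0 with no filter on low genes, with a clock gene score or an immediate early gene score as a covariate, with a test against a 1.3-fold change and in the 28 libraries whose label numbers occur in both groups. It ranged from 0 to 1 without single mice. The number of pathway genes called was 4 and became 7 with DESeq2, 1 with no filter, 1 with the GC content trend removed, 0 with either score as a covariate and 0 against a 1.3-fold change, and it ranged from 2 to 6 without single mice (2 without LD mouse 28). With the label number as a replicate block in those 28 libraries, 0 members and 1 pathway gene were called, against 0 and 2 without the block. Whether the numbers mark pairs was not settled. The correlations of same-numbered mice ran from -0.26 to 0.43 with 6 of 14 over 0.1, and 3 of 14 LD mice correlated best with their own number. These values were not set against other pairings of the mice. The cause of these changes was not tested. Over all genes the 1301 calls became 1679 with DESeq2, 629 with no filter, 601 with the GC content trend removed, 494 with the block (616 without it), 85 with the immediate early gene score, 2 against a 1.3-fold change and 0 with the clock gene score.

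Stat5b had a negative difference throughout, between -0.33 and -0.22, and passed in 9 of 15 alternatives, with an FDR of 0.0198 to 0.0557 without single mice. Values that turned sign were never called. Stat3 became -0.0049 and -0.0030 with limma on log2(FPKM + 0.1) and log2(FPKM + 1), -0.025 with the block, -0.049 with the immediate early gene score, -0.035 with the GC content trend removed and -0.083 to 0.039 without single mice (negative in 9 of 30). Il6ra became 0.088 and Pim1 -0.028 with the clock gene score, and Socs3 -0.031 with the GC content trend removed. Without single mice, Socs3 ranged from -0.051 to 0.16 and Cish from -0.19 to 0.49. The Socs3 to Il6st ratio difference stayed between 0.02 and 0.17 without single mice (p = 0.353 to 0.902). Of the 18 correlations of Socs3, 1 passed, and 0 without the 2 farthest mice. The 7 ligands below the filter had means of 0.90 to 12.6 reads per library and a mean FPKM under 0.5 in both groups.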

Other observations

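In LD mice, which shared an unshifted schedule, the animals with the most Lifr had the least Stat5b and Pim1. Mice 31, 29 and 32 had the highest Lifr of the 14 (7.86, 7.73 and 7.24 FPKM) and the lowest Stat5b (38.0, 40.7 and 40.4 FPKM) and Pim1 (2.31, 2.85 and 2.48 FPKM). The correlations were r = -0.71 for Lifr with Stat5b (permutation p = 0.00499, adjusted p = 0.0898; rho = -0.68, adjusted p = 0.158), -0.68 for Lifr with Pim1 (p = 0.00732, adjusted p = 0.0941; rho = -0.44, adjusted p = 0.395) and 0.69 for Stat5b with Pim1 (p = 0.00686, adjusted p = 0.0941; rho = 0.65, adjusted p = 0.172; n = 14 each), and none passed after adjustment over the 90 pairs. Without the 2 mice farthest from the median they were -0.57, -0.42 and 0.51. The other end of the ranges did not mirror this, since mouse 36 had the 2nd lowest Lifr with the 4th lowest Stat5b and Pim1, and mouse 23, highest in Stat5b and Pim1, ranked 7th of 14 from the lowest in Lifr. The 3 mice with the most Lifr ranked 9th to 11th of 14 in the clock gene score. In ADV mice (n = 16) both relations of Lifr had the other sign. There r was 0.43 for Lifr with Stat5b and 0.41 for Lifr with Pim1 (permutation test, adjusted p = 0.376 each). Stat5b with Pim1 gave r = 0.55 (adjusted p = 0.209), and the difference between the groups was not tested.

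Socs3 in LD mice was lower where Stat5b was higher (r = -0.63, permutation p = 0.0181, adjusted p = 0.163; rho = -0.67, p = 0.0103, adjusted p = 0.0931; n = 14), which did not pass over its 18 relations. In ADV mice the same r was -0.18 (p = 0.476, adjusted p = 0.705; rho = -0.10, adjusted p = 0.930; n = 16), and the difference between the groups was not tested.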
